A study of Homo sapiens with 18 samples.

Results

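The Notch genes described here are 9 of the 26941 genes in the count tables of 3 leukemia cell lines. They were chosen by their symbols, with earlier results of these data known. They are the receptors *NOTCH1*, *NOTCH2* and *NOTCH3*, the nuclear partners *RBPJ* and *MAML1* that the cleaved receptor binds, and the target genes *HES1*, *HES4*, *DTX1* and *NRARP*. The samples were 18 RNA preparations of the B-cell precursor ALL lines RCH-ACV, 697 and REH. Of each line 3 samples had received *SOX11* siRNA and 3 a non-specific control siRNA at 300 nM by nucleofection, and RNA was taken at 48 h. An siRNA lowers its target mRNA without removing the gene, although the sample titles call the treated samples KO. The siRNA comparison asks which Notch genes respond when *SOX11*, a transcription factor that these lines express, is reduced, because *ADAM10*, the protease that starts the activation of Notch receptors, fell in every line. Each line stands for 1 established culture, so a difference between lines cannot be extended to a type of leukemia.

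Notch receptors are single-pass membrane proteins that bind Delta-like and Jagged ligands on a neighbouring cell. Ligand binding exposes a site that ADAM10 cuts, after which the γ-secretase complex releases the intracellular domain, and this fragment moves to the nucleus. There it joins the DNA-binding protein RBPJ and a Mastermind-like coactivator such as MAML1, and the complex replaces corepressors at target genes. *HES1* and *HES4* encode transcriptional repressors of the Hairy and Enhancer of split family, *NRARP* encodes a feedback inhibitor that binds the nuclear complex, and *DTX1* encodes an E3 ubiquitin ligase. In lymphoid development NOTCH1 signaling directs progenitors to the T-cell fate, and NOTCH2 signaling is needed for marginal zone B cells.

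The levels of genes are given in CPM (counts scaled to the size of the library, after TMM). Total counts per sample lay between 7039594 and 16592492. By these totals alone, without TMM, 3 counts, taken as the smallest number that shows a gene, correspond to 0.181 to 0.426 CPM. Such floors cover counting error only. Replicate pairs differed beyond sampling noise (chi-square per degree of freedom 1.30 to 5.20), so no sample was the same library counted again. This measure cannot exclude separate libraries of 1 RNA sample. *SOX11* was lower with its siRNA in every line, with log2 fold changes of -0.83, -0.91 and -0.67 in the order REH, 697 and RCH-ACV. The knockdown was partial in these counts, as 0.563, 0.530 and 0.627 of the control level remained. The study reports a deeper reduction, measured by RT-qPCR and Western blot. Markers were counted where their mean over the samples of a line reached 1 CPM. Of 10 B-cell precursor markers, 9 did so in REH, where *VPREB1* did not, and all 10 did so in 697 and RCH-ACV. The T-cell genes *CD3D*, *CD3E* and *CD3G* stayed under 1 CPM in every sample, and the 10 T-cell markers together summed to 37.4 to 90.1 CPM, mainly from *LCK*, *BCL11B* and *GATA3*. In some lines the marker sums of the siRNA groups did not overlap. The B-cell precursor sum in 697 was 5310 to 5637 CPM with control siRNA and 4596 to 4787 CPM with *SOX11* siRNA, and in REH it was 6172 to 6341 CPM and 6530 to 6571 CPM. The 10 myeloid markers summed to 15.1 to 17.0 CPM with control siRNA and 9.49 to 11.0 CPM with *SOX11* siRNA in REH, where only *MPO* had a mean of 1 CPM or more, and in 697 to 13.5 to 15.8 CPM and 16.2 to 18.9 CPM. Over all samples they summed to 9.49 to 39.1 CPM. The 8 endothelial and stromal markers summed to 18.2 to 216 CPM, and of these *PECAM1*, *COL1A1* and *PDGFRB* had a mean of 1 CPM or more in each line. In RCH-ACV their sum was 191 to 204 CPM with control siRNA and 205 to 216 CPM with *SOX11* siRNA. The part of these sums in the Notch gene values was not tested. In bulk RNA, fewer cells of a type and less RNA per cell cannot be told apart.

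The 3 receptor genes were expressed in different proportions in the 3 lines. Expressed per kilobase of transcript, which allows genes to be compared, *NOTCH1* made up most of the receptor mRNA in REH, *NOTCH2* most of it in 697, and *NOTCH3* the larger share in RCH-ACV. In the REH control samples *NOTCH1* held 71.8% ± 3.24 (SD, n = 3) of the summed CPM per kb of *NOTCH1* to *NOTCH4*, with *NOTCH2* at 27.3% ± 2.76. The 697 control samples had 65.6% ± 3.88 *NOTCH2*, 23.0% ± 2.20 *NOTCH1* and 11.0% ± 1.64 *NOTCH3*. In RCH-ACV controls *NOTCH3* held 52.4% ± 0.625, *NOTCH2* 32.4% ± 1.74 and *NOTCH1* 14.7% ± 1.14. *NOTCH4*, the remaining human receptor gene, contributed under 1% in the control group of each line, with 0.864% ± 0.471 the highest group mean. The summed receptor level was 13.4 ± 2.09 CPM per kb in REH, 16.2 ± 1.45 in 697 and 34.4 ± 2.46 in RCH-ACV controls (SD, n = 3 each). With *SOX11* siRNA the leading shares differed from the controls by less than the larger SD of the groups, as *NOTCH1* held 70.0% ± 0.152 in REH, *NOTCH2* 66.8% ± 2.75 in 697 and *NOTCH3* 52.1% ± 3.17 in RCH-ACV. No test was run on these shares, and the tests below were run on the count of each receptor.

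**Figure D1:**
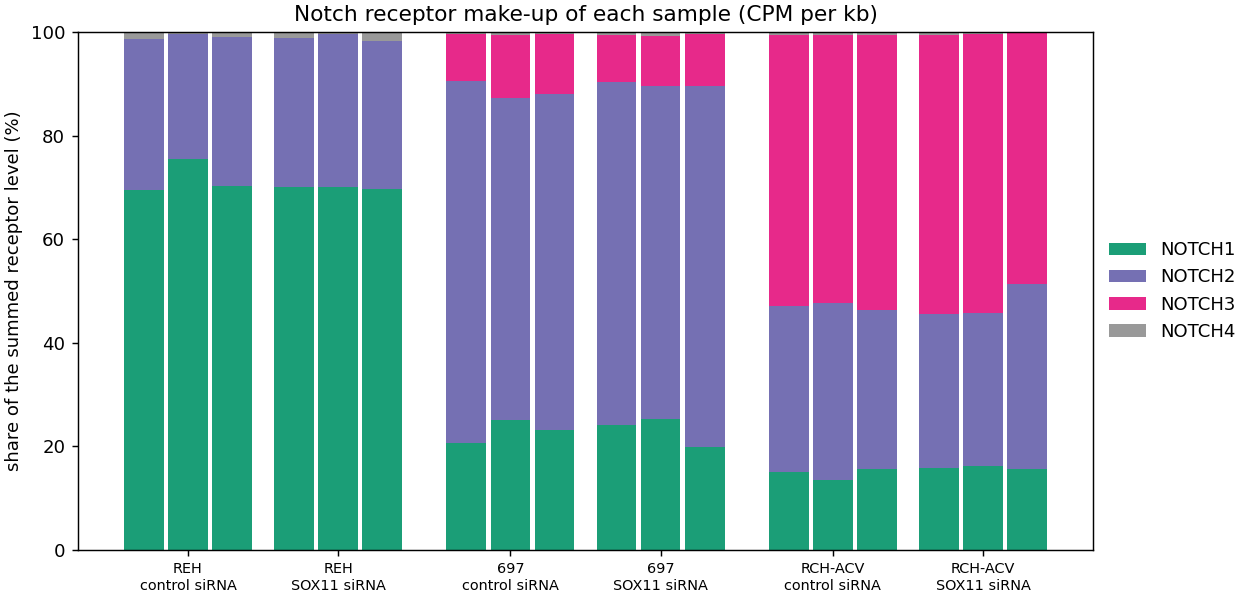
Share of each Notch receptor gene in the summed receptor level (percent of CPM per kb, vertical axis) in each of the 18 samples, with 3 bars for each cell line and siRNA. *NOTCH1* takes about 70% of each REH bar, *NOTCH2* most of each 697 bar, and *NOTCH3* the larger part of each RCH-ACV bar, with either siRNA.

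*NOTCH1* (NM_017617) lies on the minus strand of chromosome 9 from 139388885 to 139440500 in hg19, with 34 exons. Its level was 79.1, 114 and 84.2 CPM in the REH control samples, 35.0, 35.5 and 35.3 CPM in 697, and 51.7, 40.5 and 53.3 CPM in RCH-ACV. REH was thus the highest line without overlap, and RCH-ACV lay above 697. The level in REH was 2.63-fold that in 697 (log2 difference 1.39, SE 0.13, adjusted p = 1.19e-08) and 1.90-fold that in RCH-ACV (0.92, SE 0.12, adjusted p = 1.18e-06). RCH-ACV exceeded 697 by 1.38-fold (log2 difference 0.47, SE 0.14, adjusted p = 0.00741). These and the other level comparisons used edgeR's quasi-likelihood test on the 9 control samples with Benjamini-Hochberg adjustment over 13686 genes, and each line's controls serve in 2 of the 3 comparisons and in the siRNA comparison of that line. Whether the lines were processed together is not given in the labels, so line and processing cannot be told apart.

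*NOTCH2* (NM_024408, chromosome 1 from 120454176 to 120643366, minus strand) was lowest in REH, where *NOTCH1* was highest. The REH controls held 39.5, 43.5 and 41.0 CPM, against 141, 105 and 118 CPM in 697 and 132, 123 and 125 CPM in RCH-ACV. REH was at 0.338 of the 697 level (log2 difference -1.57, SE 0.09, adjusted p = 9.83e-12) and at 0.324 of the RCH-ACV level (-1.63, SE 0.09, adjusted p = 5.89e-12). The values of 697 and RCH-ACV overlapped, and their log2 difference of 0.06 had a 95% interval from -0.10 to 0.22 (adjusted p = 0.502). Without the first 697 control, the highest of that group, the difference was 0.18 (adjusted p = 0.00836). *NOTCH2* has a near-identical partial copy, *NOTCH2NLA*, which held 26 to 111 counts per sample, and reads with up to 2 alignments were kept, so some reads of either gene may be counted on the other.

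*NOTCH3* (NM_000435, chromosome 19 from 15269849 to 15311806, minus strand) is itself a Notch target in T-lineage cells. It was close to absent in REH, where the controls gave 0.0951, 0 and 0 CPM and the samples with *SOX11* siRNA 0 CPM each. The 697 controls held 14, 15.7 and 16.1 CPM, and the RCH-ACV controls 164, 142 and 164 CPM. The lines did not overlap. RCH-ACV exceeded 697 by 10.3-fold (log2 difference 3.37, SE 0.09, adjusted p = 2.81e-17). The REH controls held 1 count in 29846011, below the floor, so the ratios to REH are given with their counting intervals only. These were 433 for 697 (95% interval 77.3 to 17166) and 4683 for RCH-ACV (840 to 185024). *NOTCH3* was therefore the receptor whose level differed most between the lines on the ratio scale, while *NOTCH1* and *NOTCH2* were counted in all 18 samples.

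The nuclear partners differed little. *RBPJ* has near-identical pseudogene copies, so reads shared with them may be missing from its count or added to it. *RBPJ* (chromosome 4 from 26165077 to 26436753, plus strand), which encodes the DNA-binding component, was at 170, 172 and 172 CPM in REH controls, 193, 176 and 186 in 697 and 178, 196 and 180 in RCH-ACV. Its log2 difference was -0.12 (SE 0.05) for REH against each of the other lines, with adjusted p = 0.0360 and 0.0356, and -0.00 between RCH-ACV and 697 (95% interval -0.11 to 0.11). With library size alone in place of TMM, REH against 697 was 0.01, so the sign of this small difference depends on the scaling, and REH against RCH-ACV was -0.05 (adjusted p = 0.351). Both *RBPJ* calls were lost without any 1 REH control (adjusted p = 0.0715 to 0.0947), the one against 697 also without the first or the third 697 control (0.0962 and 0.0645), and the one against RCH-ACV without the second RCH-ACV control (0.201). *MAML1* (chromosome 5 from 179159823 to 179204284, plus strand) was at 109, 110 and 108 CPM in REH, 92.6, 90.9 and 87.7 CPM in 697, and 95.4, 95.3 and 103 CPM in RCH-ACV controls. REH was highest without overlap, by 0.26 on the log2 scale over 697 (SE 0.05, adjusted p = 0.000172) and by 0.14 over RCH-ACV (SE 0.05, adjusted p = 0.0161). The second of these was lost without the second REH control or without the first or second RCH-ACV control (adjusted p = 0.0501, 0.0743 and 0.0721), and with DESeq2 (adjusted p = 0.0615). RCH-ACV and 697 had a difference of 0.12 (SE 0.05, adjusted p = 0.0620), which passed without the first 697 control (0.14, adjusted p = 0.0422) and with library size alone (0.18, adjusted p = 0.00511).

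Among the target genes, *DTX1* (NM_004416, chromosome 12 from 113494535 to 113535833, plus strand) set REH apart. Its control values were 147, 153 and 155 CPM in REH, 23.2, 21.9 and 28.4 CPM in 697, and 23.7, 23.3 and 26.0 CPM in RCH-ACV. The REH level was 6.13-fold that of 697 (log2 difference 2.62, SE 0.08, adjusted p = 6.86e-16) and 6.16-fold that of RCH-ACV (2.62, SE 0.07, adjusted p = 6.00e-16). The other lines overlapped and had a log2 difference of -0.01 (95% interval -0.22 to 0.20, adjusted p = 0.955). *NRARP* (NM_001004354, chromosome 9 from 140194083 to 140196723, minus strand, 1 exon) was low in every line. Its controls held 5.99, 6.49 and 4.53 CPM in REH, 4.67, 4.99 and 5.27 CPM in 697, and 6.49, 6.11 and 8.62 CPM in RCH-ACV. RCH-ACV was above 697 (log2 difference 0.52, SE 0.19, adjusted p = 0.0235), but in the *SOX11* siRNA samples of these lines the difference was -0.15 (adjusted p = 0.407), without the third RCH-ACV control it was 0.36 (adjusted p = 0.138), and without the first 697 control 0.47 (adjusted p = 0.0591). REH did not pass the test against either line (0.22 against 697, adjusted p = 0.304, and -0.30 against RCH-ACV, adjusted p = 0.118).

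Of the 9 genes, 7 passed the filter on low counts in the level comparisons. Between REH and 697, 6 of the 7 passed the threshold (adjusted p under 0.05), 3 higher and 3 lower in REH, but 76.3% of all tested genes did so too (39.4% higher and 37.0% lower). Between REH and RCH-ACV the count was also 6 of 7, 3 in each direction, beside 73.9% of all genes (36.2% higher and 37.7% lower). Between RCH-ACV and 697, 3 of 7 passed, all higher in RCH-ACV, beside 64.2% of all genes (33.3% higher and 30.9% lower). A difference between these lines is therefore the usual state of a gene. Among the members the largest differences were those of *NOTCH3* and *DTX1*.

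*HES1* and *HES4* were not detected. *HES1* (NM_005524, chromosome 3 from 193853937 to 193856521 in hg19, plus strand) had 0 counts in all 18 samples, of 165835073 counts in total, which allows a level of up to 0.0181 CPM over the samples together. *HES4* (chromosome 1 from 934342 to 935552, minus strand) had 1 count, in the second RCH-ACV control (0.130 CPM, under the floor). Such values are not rare in these tables, since 24.7% of the 26941 genes had 0 counts over the 18 samples and 28.9% had at most 1. Neither gene could be tested for an effect of the siRNA. The related target genes *HES5* and *HEY1* had at most 0.112 and 0.130 CPM in any sample.

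The promoters of *HES1* and *HES4* are shown because both genes are known as direct targets of the RBPJ complex and yet had 0 and 1 counts here, while *RBPJ* itself was counted in every sample. Each sequence is the 250 bases before the transcription start, 5′ to 3′ on the strand of the gene, from RefSeq on GRCh38.p14, so these coordinates are not those of the count tables. Capitals mark TGGGAA, the core that RBPJ binds, searched on both strands (reverse complement TTCCCA). *HES1* is chr3:194135898-194136147 on the plus strand, *HES4* is chr1:1000098-1000347 on the minus strand, and *NRARP*, given for comparison as a target that was counted in every sample, is chr9:137302272-137302521 on the minus strand.
HES1: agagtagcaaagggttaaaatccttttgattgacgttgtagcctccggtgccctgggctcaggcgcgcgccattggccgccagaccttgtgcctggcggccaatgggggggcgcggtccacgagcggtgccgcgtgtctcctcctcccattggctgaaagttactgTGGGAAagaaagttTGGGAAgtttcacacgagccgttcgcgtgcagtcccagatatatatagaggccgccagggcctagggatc
HES4: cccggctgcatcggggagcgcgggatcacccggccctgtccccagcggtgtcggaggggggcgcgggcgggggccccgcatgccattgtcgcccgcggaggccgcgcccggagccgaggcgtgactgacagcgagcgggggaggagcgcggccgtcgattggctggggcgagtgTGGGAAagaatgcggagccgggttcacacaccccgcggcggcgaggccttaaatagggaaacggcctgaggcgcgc
NRARP: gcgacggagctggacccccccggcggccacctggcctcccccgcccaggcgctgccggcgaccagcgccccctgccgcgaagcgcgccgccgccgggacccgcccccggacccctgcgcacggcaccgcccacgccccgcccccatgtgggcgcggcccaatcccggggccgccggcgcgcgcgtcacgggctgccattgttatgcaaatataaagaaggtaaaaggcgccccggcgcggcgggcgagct
The *HES1* promoter holds the core 2 times, starting 84 and 70 bases before the transcription start, and *HES4* holds it 1 time at 76 bases. In each gene 1 of the copies lies in the longer GTGGGAA, which contains TGGGAA. In the *NRARP* window there was no match. The windows of *NOTCH1*, *NOTCH2*, *NOTCH3* and *MAML1* held none, and 1 of 5 listed starts of *RBPJ* held 2. Of 35116 promoter windows of the same length, 20.8% hold TGGGAA on either strand and 5.43% hold GTGGGAA. A match or its absence describes these letters in these windows only.

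**Figure D2:**
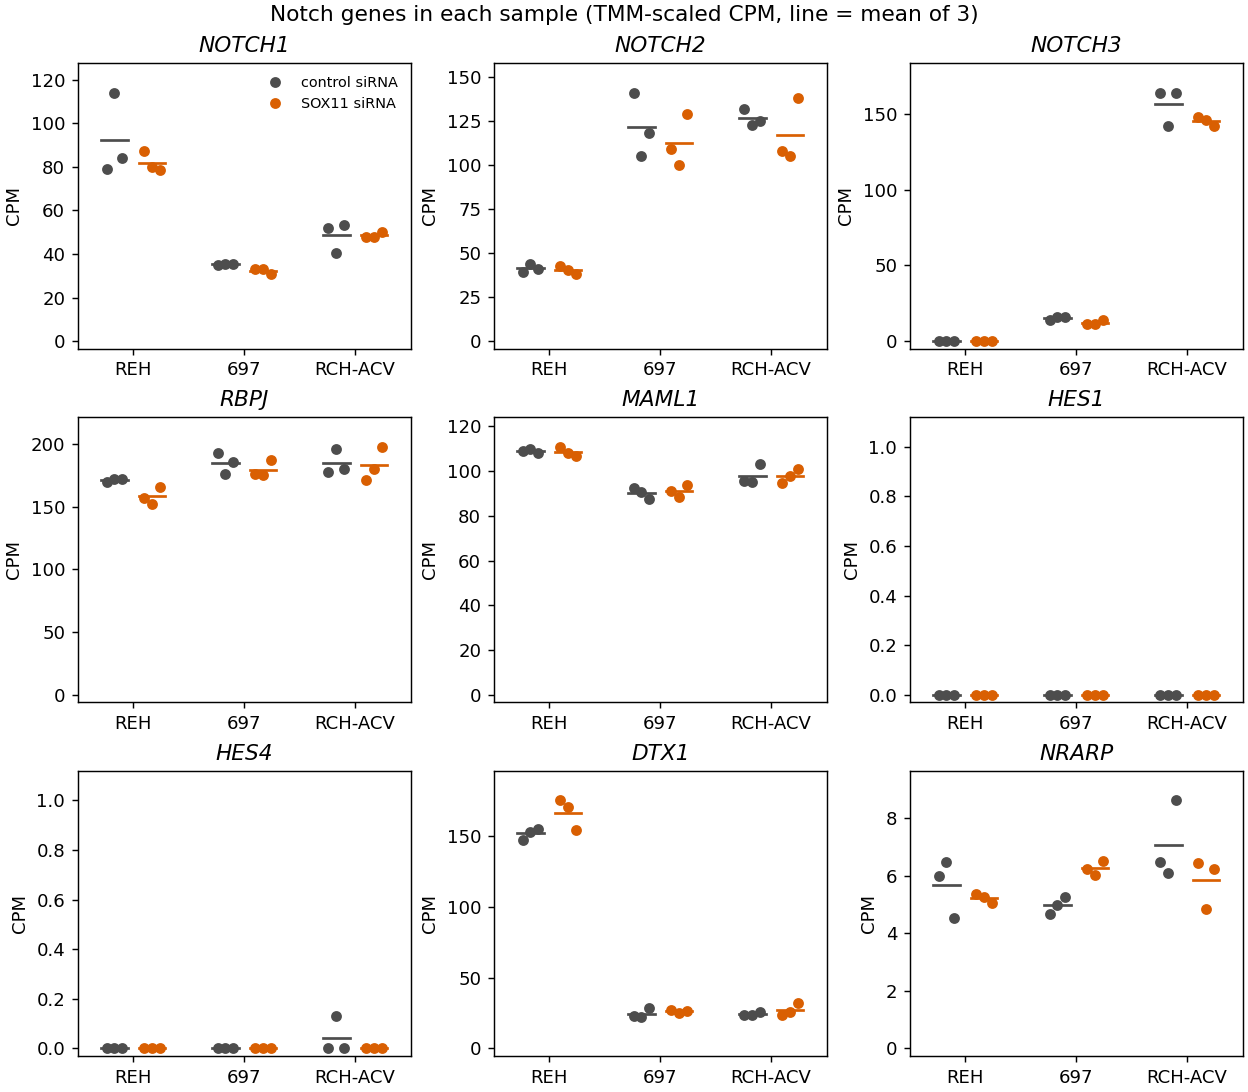
Level of each of the 9 genes (CPM after TMM scaling, vertical axis, each panel with its own scale from 0) in the 3 lines. Each point is 1 sample, grey for control siRNA and orange for *SOX11* siRNA, and each line is the mean of 3. *NOTCH3* is at 0 in REH and highest in RCH-ACV, *DTX1* is highest in REH, *HES1* is at 0 throughout, and the points of both siRNAs overlap in most panels.

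Per kilobase, *RBPJ* was the highest of the 9 genes in the controls of 697 (34.2 ± 1.61 CPM per kb) and RCH-ACV (34.2 ± 1.85), and second in REH (31.8 ± 0.236) behind *DTX1* (38.8 ± 1.11, SD, n = 3 each). In REH the order went on with *MAML1* at 19.0, *NOTCH1* at 9.66, *NOTCH2* at 3.62 and *NRARP* at 2.15 CPM per kb, and no neighbours among these overlapped. In 697 it went on with *MAML1* at 15.7, *NOTCH2* at 10.6, *DTX1* at 6.27, *NOTCH1* at 3.69, *NRARP* at 1.88 and *NOTCH3* at 1.76, of which the last pair overlapped. In RCH-ACV *NOTCH3* (18 ± 1.45) and *MAML1* (17.0 ± 0.804) followed *RBPJ* and overlapped, and then came *NOTCH2* at 11.1, *DTX1* at 6.22, *NOTCH1* at 5.07 and *NRARP* at 2.68 CPM per kb.

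The genes most like each receptor in pattern were found by the distance between the 6 group means of log2 CPM, each centred on its own mean, over all tested genes. For *NOTCH1*, whose means span 1.5 on the log2 scale, these were *IFNGR1* (distance 0.14) and *PARP11* (0.15). For *NOTCH2*, with a span of 1.65, they were *SENCR* and *FNDC3B* (0.14 each). *NOTCH3* had no close match at its span of 11.49, the nearest being *RIOX2* (1.28) and *PKDCC* (1.32), which were at 0.0261 ± 0.0451 and 0 CPM in REH controls and at 58.8 ± 3.23 and 206 ± 12.8 CPM in RCH-ACV controls (SD, n = 3). *DTX1*, with a span of 2.77, was nearest to *TAPT1* (0.22) and *MIB1* (0.32). The means of *RBPJ*, *MAML1* and *NRARP* spanned less than 1 and were not matched. The 6 means come from 18 samples of 3 lines, so this likeness is mostly that of 3 line levels.

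None of the Notch genes passed the test for an effect of *SOX11* siRNA in any line, at a partial knockdown that left 0.530 to 0.627 of the *SOX11* mRNA. In REH 0 of 6 tested members passed, beside 4.65% of all tested genes (2.64% higher and 2.02% lower with *SOX11* siRNA). In 697 it was 0 of 7, beside 0.559% of all genes (0.0822% higher and 0.477% lower), and in RCH-ACV 0 of 7, beside 7.64% (3.68% higher and 3.97% lower). A fit over all 18 samples with cell line as a covariate, which estimates the effect that the lines share, called 0 of 7, beside 9.02% of all genes (3.74% higher and 5.28% lower). At shares this low a count of 0 in 6 or 7 genes is near the background. At an unadjusted p under 0.05 edgeR named 3 members in REH (*DTX1*, *NOTCH1* and *RBPJ*), 1 in 697 (*NOTCH3*), 0 in RCH-ACV and 2 over the lines (*DTX1* and *NOTCH3*), and such p-values were found for 16.9%, 8.31%, 22.6% and 21.9% of all genes. DESeq2 also called 0 members in each of these comparisons.

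The receptor values with *SOX11* siRNA stayed close to their controls. For *NOTCH1* they were 87.3, 79.8 and 78.4 CPM in REH, 33.1, 33.1 and 30.9 CPM in 697, and 48.0, 47.9 and 50.2 CPM in RCH-ACV. In REH and RCH-ACV the groups overlapped, and in 697 each *SOX11* siRNA sample was under each control by a small margin. The change of *NOTCH1* on the log2 scale was -0.19 in REH (SE 0.09, 95% interval -0.37 to -0.01, adjusted p = 0.275), -0.13 in 697 (interval -0.31 to 0.05, adjusted p = 0.790) and -0.00 in RCH-ACV (interval -0.18 to 0.17, adjusted p = 0.992). The REH value rests on single controls. Without the second, the highest at 114 CPM, it was 0.01, and without the first it was -0.30 and passed (adjusted p = 0.0260).

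*NOTCH2* was at 42.8, 40.2 and 38.2 CPM in REH, 109, 100 and 129 CPM in 697, and 108, 105 and 138 CPM in RCH-ACV with *SOX11* siRNA. The groups overlapped in every line, and the log2 fold changes were -0.03, -0.11 and -0.13 (adjusted p = 0.870, 0.893 and 0.357). In RCH-ACV the overlap came from the third *SOX11* siRNA sample, which at 138 CPM stood above the controls, and without it the log2 fold change was -0.26 (adjusted p = 0.000195). The count of called genes in RCH-ACV was also much larger without that sample, 2518 in place of 991. *NOTCH3* was at 11.3, 11.4 and 13.9 CPM in 697 and 148, 146 and 142 CPM in RCH-ACV with *SOX11* siRNA. In 697 all 3 values lay under the controls (log2 fold change -0.32, SE 0.13, 95% interval -0.61 to -0.03, adjusted p = 0.537), and in RCH-ACV the groups overlapped (-0.11, SE 0.06, interval -0.23 to 0.00, adjusted p = 0.242). Over the lines its log2 fold change was -0.15 (SE 0.06, adjusted p = 0.101), and it passed without the second RCH-ACV control (-0.21, adjusted p = 0.0215).

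The nuclear partners were not called in any line. *MAML1* had log2 fold changes of -0.00, 0.01 and -0.00 in REH, 697 and RCH-ACV, and over the lines 0.00 with a 95% interval from -0.06 to 0.06. *RBPJ* was at 157, 152 and 166 CPM with *SOX11* siRNA in REH, under every control, with a log2 fold change of -0.11 (SE 0.04, interval -0.19 to -0.02, adjusted p = 0.167). In 697 it was -0.05 and in RCH-ACV -0.01, where the groups overlapped (adjusted p = 0.919 and 0.929). Over the lines the value for *RBPJ* was -0.06 (interval -0.12 to 0.01, adjusted p = 0.324).

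The target genes *DTX1* and *NRARP* were not called in any line. *DTX1* was at 175, 170 and 154 CPM with *SOX11* siRNA in REH, 27.1, 25.3 and 26.6 CPM in 697, and 23.4, 26.0 and 32.3 CPM in RCH-ACV. The groups overlapped in every line. Its log2 fold changes were 0.14 in REH (SE 0.05, 95% interval 0.04 to 0.24, adjusted p = 0.0985), 0.10 in 697 (adjusted p = 0.921) and 0.16 in RCH-ACV (adjusted p = 0.398). Over the lines *DTX1* had 0.13 (SE 0.05, interval 0.03 to 0.23, adjusted p = 0.0888). It passed in REH without the third *SOX11* siRNA sample (0.20, adjusted p = 0.00939), and over the lines without that sample (0.16, adjusted p = 0.0438) or without the third 697 control (0.15, adjusted p = 0.0378).

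*NRARP* was at 5.38, 5.27 and 5.07 CPM in REH, 6.23, 6.03 and 6.51 CPM in 697, and 6.44, 4.85 and 6.22 CPM in RCH-ACV with *SOX11* siRNA. In 697 all 3 values lay above the controls, with a log2 fold change of 0.33 (SE 0.16, 95% interval -0.03 to 0.69, adjusted p = 0.663). In RCH-ACV it was -0.34 (SE 0.17, interval -0.70 to 0.03, adjusted p = 0.263) and in REH -0.15 (SE 0.16, interval -0.49 to 0.19, adjusted p = 0.724), with overlap. A test of the difference in effect between the lines gave adjusted p = 0.426 for *NRARP*. In that test 0 of 7 members passed, beside 0.727% of all genes, and 1 (*NRARP*) had an unadjusted p under 0.05, as had 10.2% of all genes. DESeq2 called 0 of the 6 members for which it gave an adjusted p.

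Counting samples in place of p-values, the *SOX11* siRNA and control samples did not overlap for 1 of 6 members in REH (*RBPJ*, lower), 3 of 7 in 697 (*NOTCH1* and *NOTCH3* lower, *NRARP* higher) and 0 of 7 in RCH-ACV. Over all tested genes 21.4%, 13.1% and 25.9% had groups that did not overlap. The median log2 fold change of the tested members was -0.069, -0.047 and -0.012 in REH, 697 and RCH-ACV, beside -0.002, -0.003 and 0.005 for all tested genes.

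**Figure D3:**
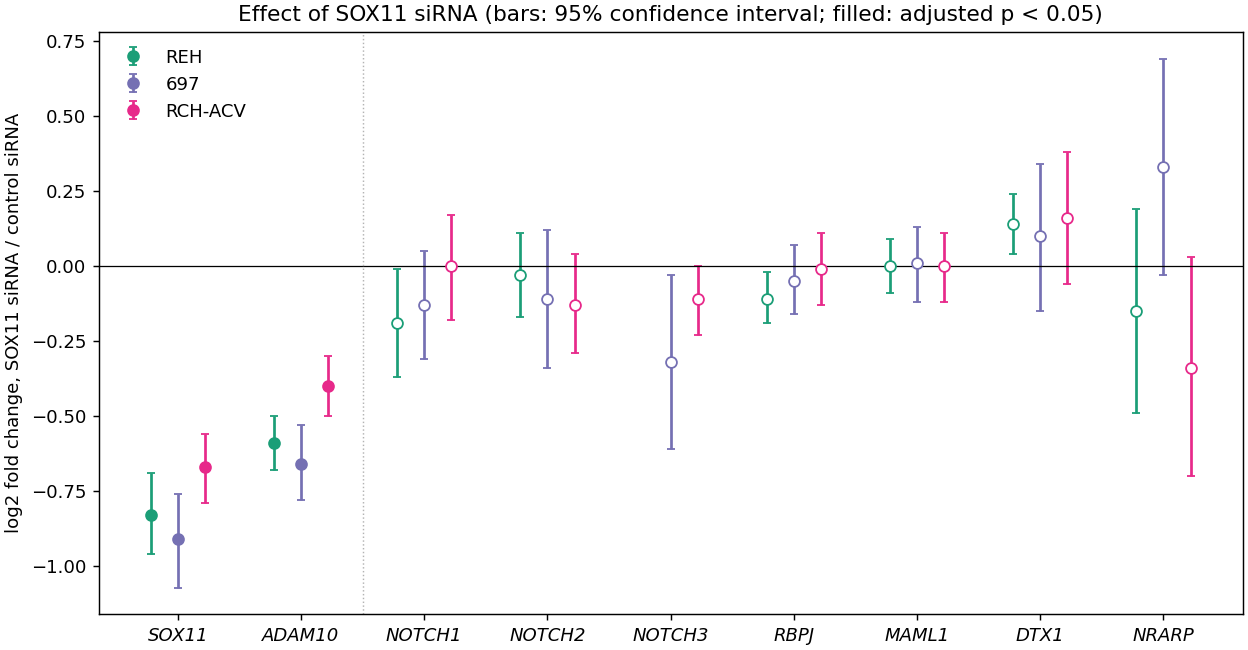
Log2 fold change of *SOX11* siRNA against control siRNA (vertical axis) for *SOX11*, *ADAM10* and the 7 tested Notch genes in REH, 697 and RCH-ACV, with 95% confidence intervals from edgeR, where a filled point passed an adjusted p of 0.05. *SOX11* and *ADAM10* are filled and below 0 in each line, and every point to the right of the dotted line is open, with *NRARP* the widest interval and *MAML1* centred on 0.

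The intervals can be read against *ADAM10*, whose protein cuts these receptors. *ADAM10* (chromosome 15 from 58881008 to 59041990, minus strand) was at 218, 212 and 204 CPM with control siRNA and 136, 138 and 146 CPM with *SOX11* siRNA in REH. In 697 the values were 389, 338 and 348 against 226, 216 and 240 CPM, and in RCH-ACV 277, 295 and 302 against 213, 216 and 234 CPM. No sample of one siRNA reached those of the other. *ADAM10* fell by 0.59 on the log2 scale in REH (SE 0.04, adjusted p = 4.48e-09), by 0.66 in 697 (SE 0.06, adjusted p = 0.000389) and by 0.40 in RCH-ACV (SE 0.05, adjusted p = 8.26e-05). *ADAM10* was named in the rule that chose the genes, so its fall is a description here. Its paralog *ADAM17*, which can also cleave Notch, had log2 fold changes of 0.03, -0.04 and 0.02 (adjusted p = 0.870, 0.963 and 0.895). *ADAM10* was picked because it fell, so its change is only a scale and not a size expected of the Notch genes. The intervals are not adjusted for the number of genes, and some values above moved when 1 sample was left out. A fall of the size of that of *ADAM10* in the same line lies outside the 95% interval of *NOTCH1*, *NOTCH2*, *RBPJ*, *MAML1* and *DTX1* in each line. The same holds for *NOTCH3* in both lines where it was tested, and for *NRARP* in REH and 697, but in RCH-ACV such a fall lies inside the interval of *NRARP*. These are mRNA levels, and receptor cleavage was not measured in these samples.

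The genes around the receptors were read from 8 lists by role, 66 genes in all, of which *ADAM10* was the only one called in every line. In REH 53 were tested and 3 called (1 higher and 2 lower), in 697 54 and 2 (both lower), in RCH-ACV 53 and 7 (2 higher and 5 lower), and over the lines 58 and 10 (4 higher and 6 lower). The shares of 5.66%, 3.70%, 13.2% and 17.2% stand beside the 4.65%, 0.559%, 7.64% and 9.02% of all genes given above. They include *ADAM10*, whose fall was known when the genes were chosen. Part of each share was thus fixed in advance, and the shares are no test of the lists. The median log2 fold change of the listed genes was 0.010, -0.047, -0.023 and -0.017.

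In RCH-ACV 1 of 3 tested ligands and 1 of 5 glycosylation genes were called, beside 7.64% of all genes. With so few genes these counts are not read as a result about the lists. *JAG2*, a Jagged ligand, was in RCH-ACV at 63.0, 60.0 and 72.1 CPM with control siRNA and at 85.9, 84.1 and 72.5 CPM with *SOX11* siRNA, and it rose by 0.31 on the log2 scale (SE 0.08, adjusted p = 0.0170). In the other lines *JAG2* lay at 11.5 CPM or less and had log2 fold changes of 0.07 in REH and -0.23 in 697 (adjusted p = 0.874 and 0.921), with a test of the difference between lines at adjusted p = 0.681. *MFNG*, the Manic fringe glycosyltransferase that alters the ligand preference of Notch, rose by 0.21 in RCH-ACV (SE 0.06, adjusted p = 0.0246), from 111, 111 and 106 to 123, 135 and 120 CPM. Over the lines *MFNG* rose by 0.17 (SE 0.03, adjusted p = 0.00124), with 0.13 in REH and 0.15 in 697 that did not pass by themselves (adjusted p = 0.185 and 0.623). The *JAG2* call in RCH-ACV was lost without any 1 of the first and second samples of either siRNA (0.26 to 0.29, adjusted p = 0.0767 to 0.109), and that of *MFNG* without the second *SOX11* siRNA sample (0.15, adjusted p = 0.189) or any 1 control (0.19 to 0.23, adjusted p = 0.0735 to 0.118). Over the lines *JAG2* had 0.24 (SE 0.07, adjusted p = 0.0397), which was lost with DESeq2 (adjusted p = 0.409) and without any 1 of 7 samples (adjusted p = 0.0509 to 0.160). Of 5 ligands *JAG2* was the only called gene, and of 5 glycosylation genes *MFNG*, in RCH-ACV and over the lines (beside 7.64% and 9.02% of all genes). *POFUT1*, which adds O-fucose to Notch, had values of 0.00, 0.06 and 0.02. *DLL3*, the second ligand by CPM per kb averaged over the controls of the lines, was not tested in REH and was at -0.34 in 697 and -0.08 in RCH-ACV, neither of them called.

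Of the cleavage genes only *ADAM10* was called, 1 of 8 tested in REH and 1 of 9 in 697 and in RCH-ACV. Of all genes 4.65%, 0.559% and 7.64% were called in these lines. *APH1A* and *NCSTN*, the members of the γ-secretase complex with the highest CPM per kb averaged over the controls of the lines, had log2 fold changes of -0.04, -0.03 and 0.03 and of -0.07, -0.14 and -0.00 in REH, 697 and RCH-ACV. *SNW1*, the highest gene of the nuclear list by the same average, which encodes a bridging cofactor of RBPJ, was at 0.01, 0.01 and -0.02. Within the nuclear list no gene was called in a single line, and over the lines 2 of 8 were, beside 9.02% of all genes. Over the lines *MAML3*, a Mastermind-like coactivator related to MAML1, fell by 0.23 (SE 0.06, adjusted p = 0.0101), and the acetyltransferase gene *KAT2B* rose by 0.20 (SE 0.06, adjusted p = 0.0283). The *KAT2B* call was lost without any 1 of 6 samples (adjusted p = 0.0537 to 0.0723), such as the third RCH-ACV control. The fall of *MAML3* had the values -0.42 in REH, -0.16 in 697 and -0.21 in RCH-ACV (adjusted p = 0.0518, 0.694 and 0.150).

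Of 7 RBPJ corepressor genes 1 was called in RCH-ACV and 2 over the lines, beside 7.64% and 9.02% of all genes. With so few genes these counts are not read as a result about the list. *L3MBTL3*, whose protein is recruited by RBPJ to repress targets, fell by 0.24 in RCH-ACV (SE 0.07, adjusted p = 0.0332), from 51.7, 50.9 and 49.3 to 45.1, 40.4 and 43.8 CPM, and by 0.16 over the lines (SE 0.05, adjusted p = 0.0312). *RITA1*, which encodes a protein that exports RBPJ from the nucleus, rose by 0.21 over the lines (SE 0.06, adjusted p = 0.0148). *CTBP1* and *NCOR1*, the highest corepressor genes by CPM per kb averaged over the controls of the lines, were not called in any line (0.01, 0.14 and 0.14 for *CTBP1*, and 0.09, -0.05 and -0.03 for *NCOR1*). Over the lines the corepressor list thus held 1 call in each direction. The *L3MBTL3* call in RCH-ACV was lost without any 1 sample but the third with *SOX11* siRNA (-0.19 to -0.27, adjusted p = 0.0533 to 0.214) and with DESeq2 (adjusted p = 0.137), and over the lines it was lost without any 1 of 8 samples (adjusted p = 0.0514 to 0.111). The *RITA1* call was lost without the second RCH-ACV sample with *SOX11* siRNA (0.17, adjusted p = 0.0539).

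Among the genes of trafficking and turnover, *FBXW7*, the F-box subunit of the ubiquitin ligase that degrades the Notch intracellular domain and also MYC, fell in RCH-ACV. Its values there were 155, 160 and 160 CPM with control siRNA and 117, 120 and 140 CPM with *SOX11* siRNA, a log2 fold change of -0.33 (SE 0.06, adjusted p = 0.00197). In 697 the groups were also apart, at 274, 241 and 243 against 197, 207 and 219 CPM, but the change of -0.28 did not pass (SE 0.06, adjusted p = 0.0815) except with DESeq2 (adjusted p = 0.0354) and in 1 fit over the 18 samples (adjusted p = 0.0156), and in REH it was -0.12 (adjusted p = 0.328). Over the lines *FBXW7* fell by 0.26 (SE 0.04, adjusted p = 9.14e-05). *AAK1*, an endocytic kinase that binds NUMB, fell by 0.25 in RCH-ACV (SE 0.06, adjusted p = 0.0194). Its log2 fold change was 0.20 in REH, the opposite sign, -0.15 in 697 and -0.10 over the lines (adjusted p = 0.215, 0.840 and 0.422). *NUMBL*, a relative of the Notch antagonist *NUMB*, fell by 0.29 over the lines (SE 0.08, adjusted p = 0.0286). *DTX4*, a paralog of *DTX1*, rose by 0.40 in REH (SE 0.09, adjusted p = 0.0116), from 14.7, 16.2 and 15.9 to 19.7, 19.8 and 21.8 CPM. Its log2 fold change was -0.21 in 697, 0.17 in RCH-ACV and 0.21 over the lines (adjusted p = 0.896, 0.352 and 0.0984). *MIB1*, a ubiquitin ligase that acts on Notch ligands, and *CCNC*, the cyclin partner of a kinase that marks the intracellular domain for degradation, were the highest on this list by CPM per kb averaged over the controls of the lines, and were called in no line. The *AAK1* call was lost without any 1 sample but the third with *SOX11* siRNA (adjusted p = 0.0587 to 0.157) and in 1 fit over the 18 samples (adjusted p = 0.117), the *NUMBL* call without any 1 of 5 samples (adjusted p = 0.0536 to 0.0640), and the *DTX4* call without the third REH sample with *SOX11* siRNA (0.35, adjusted p = 0.0597) and in that fit (adjusted p = 0.0624).

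Of 14 listed target genes, 5 were tested in REH and 6 in 697 and in RCH-ACV, and the 2 called ones were *IL7R* and *MYC*, which are Notch targets in T-lineage leukemia and have other regulators in B-lineage cells. *IL7R*, which encodes a chain of the interleukin 7 receptor, was at 902, 846 and 842 CPM with control siRNA and 726, 727 and 777 CPM with *SOX11* siRNA in 697, and at 1517, 1555 and 1581 against 1364, 1365 and 1414 CPM in RCH-ACV. It fell by 0.22 in 697 (SE 0.04, adjusted p = 0.0492) and by 0.17 in RCH-ACV (SE 0.03, adjusted p = 0.00428). In REH the groups were apart as well, with a log2 fold change of -0.10 (SE 0.03, adjusted p = 0.0637), and over the lines *IL7R* fell by 0.16 (SE 0.02, adjusted p = 2.90e-05). *MYC* fell in REH only among the per-line tests, by 0.25 (SE 0.04, adjusted p = 0.000227), from 223, 241 and 234 to 193, 198 and 193 CPM. The call of *IL7R* in 697 lies at the threshold and was lost with RLE size factors (adjusted p = 0.0715), with no filter (adjusted p = 0.0885) and without any 1 sample but the third with *SOX11* siRNA (-0.19 to -0.23, adjusted p = 0.0932 to 0.352).

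**Figure D4:**
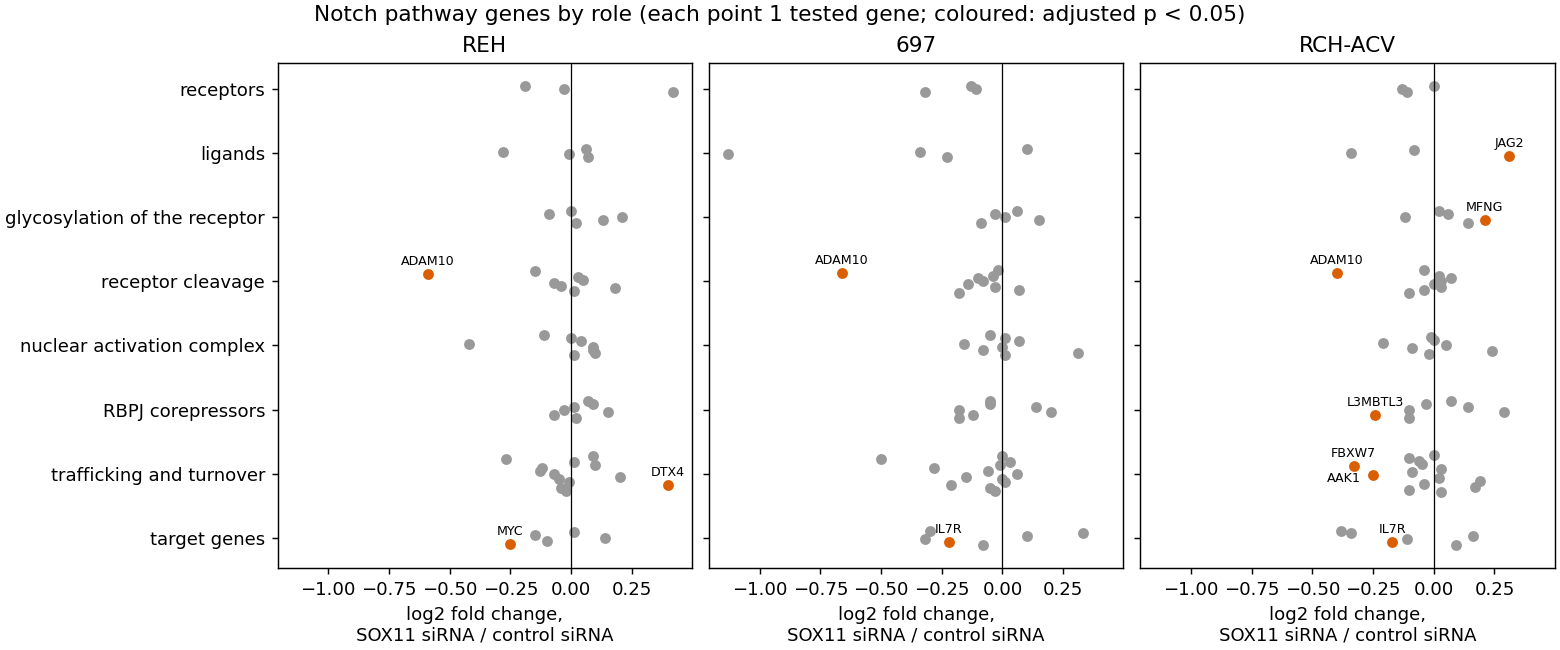
Log2 fold change of *SOX11* siRNA against control siRNA (horizontal axis) of each tested gene of the 8 role lists, with 1 panel for each line and 1 row for each list, where an orange point with its name passed an adjusted p of 0.05. *ADAM10* is the only named gene in all 3 panels. The RCH-ACV panel holds the most named genes, 7 of 53. That line also had the largest share of all tested genes called, 7.64% against 4.65% in REH and 0.559% in 697.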

How the data were processed

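Poly(A) RNA libraries (a stranded kit) were made from 18 samples, 3 per siRNA in each line. The authors checked reads with FastQC 0.10.1, trimmed and filtered them, aligned them to hg19 with STAR 2.5.3a, discarding reads with more than 2 locations, and used HOMER to count reads per RefSeq transcript. They deposited raw counts, 1 table per line, with 0 columns of other samples. The strand setting of the counting is not given in the sources used here, so reads of *NOTCH1*, *NOTCH2* and *NRARP* cannot be separated from those of the antisense transcripts that overlap them.

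Transcripts matched symbols for 98.0% of rows and 99.0% of counts, and each gene is represented by its transcript of highest summed count. Overlapping transcripts hold the same reads. For *NOTCH2* the shorter transcript held 19.7% to 28.9% of the count of the one kept. edgeR 4.0.16 in R 4.3.3 was run on the counts with TMM, filterByExpr by group and the two-sided quasi-likelihood F-test, on each line by itself as in the study, then over 18 samples for the shared effect and its interaction with line, and over the 9 controls for levels. Genes with a Benjamini-Hochberg adjusted p under 0.05 were called. CPM values used TMM over all samples, and CPM per kb the exon length of the canonical GENCODE transcript lifted to hg19, which also gave the positions. The ratios of *NOTCH3* carry exact 95% Poisson-based intervals for counting error only.

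The members and the role lists were chosen with earlier results of these data known. Named were all members, *ADAM10*, *SOX11*, each listed gene called in a line or over the lines, and up to 2 genes per list with the highest CPM per kb averaged over the controls of the lines. *CIR1* was on the corepressor list and was not analysed here, and 1 other listed gene was left out of the list counts and is not reported here. The 2 nearest genes by pattern were named for members whose means spanned over 1. The study describes independent biological replicates, and p-values measure the spread between these samples. The alternatives tried were DESeq2 1.42.0, the legacy quasi-likelihood method, no filter, a filter of CPM above 1 in 3 samples, a replicate block, RLE size factors, scaling by library size alone, 1 fit over 18 samples, an adjusted p under 0.01, another transcript choice, the *SOX11* siRNA samples for levels, and leaving out each sample. The fits were tested on simulated data. Promoters came from a RefSeq table (GRCh38.p14), which matched 8 of the members and has no entry for *DTX1*. Python 3.11.15, numpy 2.4.6, pandas 2.3.3, scipy 1.17.1, matplotlib 3.10.9 and limma 3.58.1 were used.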

Additional observations from a re-analysis of the deposited data

Results flagged for a closer look

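*MYC* responded differently in the 3 lines: the test of the difference in effect between lines had an adjusted p of 0.00536 (edgeR's quasi-likelihood test over 18 samples). Of 58 tested genes of the pathway lists *MYC* was the only one that passed this test, a share of 1.72%, beside 0.727% of all genes. The log2 fold change was -0.25 in REH (lower in 3 of 3 samples, adjusted p = 0.000227), -0.08 in 697 (lower in 3 of 3, adjusted p = 0.671) and 0.09 in RCH-ACV (higher in 3 of 3, adjusted p = 0.194). The control levels were 233 ± 9.22, 811 ± 13.3 and 612 ± 10.5 CPM (SD, n = 3).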

How the results depend on the processing

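No member passed the siRNA test under any alternative other than the single-sample omissions named above. Counts of called genes moved by over 1.5 times in these cases. In REH, 595 became 317 with DESeq2, 275 at an adjusted p under 0.01 and 242 in 1 fit over the 18 samples. In 697, 68 became 29 with the replicate block, 27 at 0.01 and 193 in 1 fit over 18 samples. In RCH-ACV, 991 became 570 with DESeq2 and 407 at 0.01. With the replicate block, 1265 became 823 over the lines and 102 became 45 for the interaction. Leaving out single samples gave 299 to 521 genes in REH, 25 to 71 in 697, 386 to 2518 in RCH-ACV and 57 to 185 for the interaction. The lowest count in 697 was without the first *SOX11* siRNA sample and the highest in RCH-ACV without the third. Same-numbered samples deviated together with correlations of -0.228 to 0.255, so the numbers were not taken as pairs. With the block, the calls of *IL7R* in 697 (adjusted p = 0.236), of *L3MBTL3* in RCH-ACV (0.0723), and over the lines of *JAG2* (0.110), *KAT2B* (0.0544), *L3MBTL3* (0.0963) and *NUMBL* (0.0646) were lost.

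With library size alone the median of all genes in REH against 697 shifted by 0.134, and 59.8% of called genes were higher in REH against 51.6% with TMM. Some small differences changed sign. By library size alone, *RBPJ* in REH against 697 was 0.01 and *DTX1* in RCH-ACV against 697 was 0.05. In the *SOX11* siRNA samples, *NRARP* was -0.26 in REH against 697 and -0.15 in RCH-ACV against 697, and *DTX1* was 0.05 in RCH-ACV against 697. Leaving out single samples gave -0.08 to 0.11 for the *DTX1* level and -0.03 to 0.18 for the *NOTCH2* level of RCH-ACV against 697. For the siRNA effect it gave -0.30 to 0.01 for *NOTCH1* in REH, -0.08 to 0.02 for *NOTCH2* in REH, -0.21 to 0.01 for *NOTCH2* in 697, -0.06 to 0.03 for *RBPJ* in RCH-ACV, -0.01 to 0.04 for *MAML1* in 697, and -0.08 to 0.22 for *JAG2* in REH. The *RBPJ* level differences were lost with DESeq2 (adjusted p = 0.0695 against 697 and 0.0663 against RCH-ACV) and with no filter (0.0603 and 0.0528), *NRARP* in RCH-ACV against 697 with DESeq2 (0.0974), and the REH call of *DTX4* with DESeq2 (0.0980). In REH *MAML3* passed with library size alone (0.0465) and with no filter (0.0441), as did *IL7R* (0.0410 and 0.0480). Without the third RCH-ACV sample with *SOX11* siRNA, *MAML3* (0.0266), *RITA1* (0.00576) and *MYC* (0.0130) passed in RCH-ACV. The causes were not tested. Depth limits *HES1*, *HES4* and *NOTCH3* in REH.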

Other observations

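The Hairy-related targets *HEYL* and *HEY2* also differed between the lines in the control samples. *HEYL* was at 4.09, 2.5 and 3.37 CPM in REH and 15.3, 15.6 and 14.9 CPM in RCH-ACV, with 0 CPM in each 697 sample. *HEY2* was at 6.39, 5.88 and 5.81 CPM in 697 and at most 0.391 CPM in the controls of the other lines. *DTX3*, a paralog of *DTX1*, was at 17.3, 15.5 and 14.6 CPM in RCH-ACV and at 0 in REH and 697. *MAML2*, a Mastermind-like coactivator, was at 39.7, 37.1 and 37.9 CPM in REH, 23.5, 22.2 and 16.8 CPM in 697, and 0.797, 0.260 and 1.05 CPM in RCH-ACV. *JAG2* was highest in RCH-ACV (65.0 ± 6.28 CPM, SD, n = 3) and *JAG1* in REH (17.7, 15.9 and 17.2 CPM). In 697 *JAG1* had a log2 fold change of -1.13 with *SOX11* siRNA (SE 0.26, adjusted p = 0.112), from 7.13, 4.41 and 5.14 to 2.67, 1.86 and 3.14 CPM. These values were picked after they were seen.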
